A study of Rattus norvegicus with 6 samples.

Results

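The genes described here are those of the proteasome, chosen by symbol alone: every gene whose symbol starts with Psma, Psmb, Psmc, Psmd, Psme, Psmf or Psmg followed by a number, and Pomp. The rule was set with earlier results of these data known, and it matched 50 of the 19382 genes in the count table. Of these, 5 form the immunoproteasome set (Psmb8, Psmb9, Psmb10, Psme1 and Psme2), 31 are constitutive subunits of the 20S core and the 19S cap, and 14 are other activators, an inhibitor, assembly chaperones, tissue-restricted variants and Psmc3ip, a meiotic recombination factor that shares only the start of its symbol. RNA of rat brain tissue had been sequenced in 6 bulk libraries. The HI group (3 libraries) came from SD rats that underwent hypoxic-ischemic treatment lasting 2.5 h when they were 7 days old, a model of neonatal brain injury. The control group (3 libraries) had a control treatment. The sources used here name no transgene, drug or deletion in either group, nor the brain region, the interval before sampling, the age of the controls or whether each library was a separate animal, and if they were not, p-values reflect technical spread.

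The proteasome degrades proteins that carry ubiquitin. Its barrel-shaped 20S core is built of alpha subunits, which gate the entry, and beta subunits, of which Psmb6 (caspase-like), Psmb7 (trypsin-like) and Psmb5 (chymotrypsin-like) carry the active sites. The 19S cap binds the ubiquitin chain, removes it and unfolds the substrate with a ring of ATPases. In cells exposed to interferon, and constantly in many immune cells, newly built cores take up Psmb9, Psmb10 and Psmb8 in place of those catalytic subunits, and the activator PA28, a ring of Psme1 and Psme2, opens the core without ATP. The peptides made by this immunoproteasome feed MHC class I presentation. In the brain it is known mainly from glia under inflammation.

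Estimated reads per library ran from 14324303 to 14927469 in HI and from 13922663 to 14692505 in controls. Levels are given as CPM, reads relative to library size after TMM scaling, which corrects for composition. The limit for a gene without reads, 3 reads, lies between 0.182 and 0.201 CPM in HI libraries and between 0.221 and 0.227 CPM in controls. Markers of choroid plexus, the epithelium that makes cerebrospinal fluid, summed to 184, 8139 and 15281 CPM in HI 1, 2 and 3 and to 16.7, 2173 and 7.70 CPM in controls 1, 2 and 3, so HI 2, HI 3 and control 2 stand apart in tissue content. For Y-linked genes HI 2, HI 3 and control 3 had 1715, 1824 and 1356 reads, and the other libraries at most 3. In bulk RNA, fewer cells of a type and less RNA per cell cannot be told apart.

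With TMM scaling the immunoproteasome genes were higher in HI than in control, by about 2-fold to more than 10-fold. Constitutive subunits differed by at most 1.29-fold. With total counts the log2 fold changes reached 0.57 in constitutive subunits and ran from 1.14 to 3.65 in immunoproteasome genes. By the edgeR quasi-likelihood test, with Benjamini-Hochberg adjustment over all 14959 genes tested and a threshold of 0.05, 4 of 5 immunoproteasome genes rose, 0 of 31 constitutive subunits rose or fell, and 2 further members rose, Psmf1 and Psmd5. Of the 50 members 49 passed the filter on low counts, and 6 of these 49 rose, against 6.83% of all genes tested. None fell by edgeR, DESeq2 or limma-voom, against 7.04%, 14.2% and 5.47% of all genes tested, and 0 members were lower at an unadjusted p below 0.05 by edgeR, against 17.4%. In either direction edgeR called 13.9% of all genes. DESeq2 called 11 members, all higher, against 13.9% of all genes higher and 28.1% in either direction. limma-voom called 4, all higher, against 3.69% higher and 9.17% in either direction. The HI values lay wholly above the controls in 5 of 5 immunoproteasome genes and 15 of 31 constitutive subunits, against 21.5% of all genes tested, and wholly below in no member, against 20.8%.

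**Figure D1:**
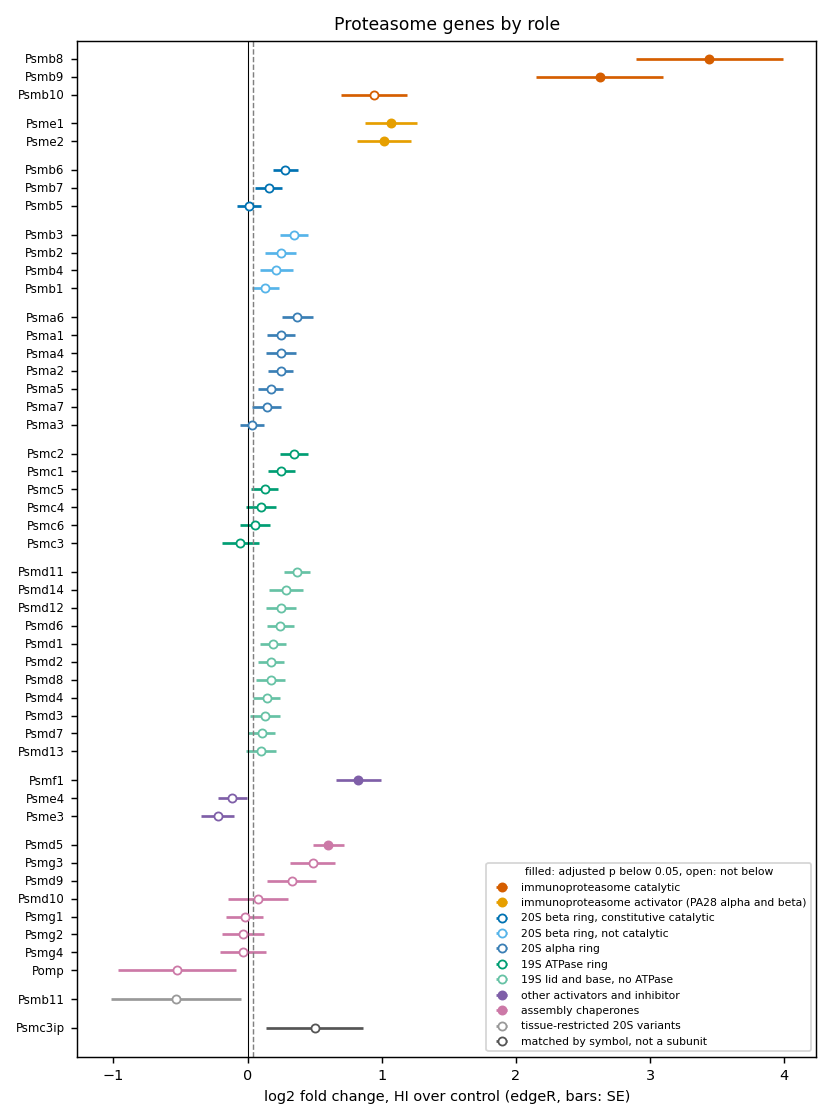
Log2 fold change of HI over control (x axis) for the 49 tested members (rows, grouped by role), from edgeR with TMM scaling. Bars are the SE, filled points have an adjusted p below 0.05, and the dashed line is the median of all genes tested (0.04). Psmb8 and Psmb9 stand at 3.44 and 2.62, and all constitutive subunits lie between -0.05 and 0.37.

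Psmb8, the chymotrypsin-like subunit of the immunoproteasome, had 7.96, 17.1 and 30.2 CPM in HI 1, 2 and 3, against 1.14, 2.21 and 1.72 CPM in controls 1, 2 and 3. These levels rest on 119, 266 and 499 reads in HI and on 15, 30 and 23 reads in the controls. The lowest HI library was well above the highest control, while the HI libraries differed widely among themselves. The rise was 10.9-fold, a log2 fold change of 3.44 ± 0.55 (SE; edgeR adjusted p = 0.0232, n = 3 per group), a call that limma-voom did not make (adjusted p = 0.0559).

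Psmb9, which takes the place of Psmb6, had 4.21, 7.90 and 13.8 CPM in HI and 1.29, 1.25 and 1.65 CPM in controls. The groups did not overlap, and the controls were close together. Psmb9 rose 6.17-fold, with a log2 fold change of 2.62 ± 0.47 (SE; edgeR adjusted p = 0.0266), a call likewise absent by limma-voom (adjusted p = 0.0557).

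Psmb10, which takes the place of Psmb7, had a smaller fold change, with 17.4, 26.6 and 31.7 CPM in HI and 14.6, 13.5 and 11.3 CPM in controls. The groups did not overlap, but HI 1 was near the controls. Its log2 fold change of 0.94 ± 0.24 (SE) missed the threshold by edgeR (adjusted p = 0.0503) and by limma-voom (adjusted p = 0.0739), and passed it by DESeq2 (adjusted p = 0.00642).

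Psme1, the alpha subunit of PA28, had 67.3, 90.7 and 113 CPM in HI and 43.1, 40.3 and 46.0 CPM in controls. Psme2, the beta subunit, had 29.8, 36.4 and 49.7 CPM in HI and 19.1, 20.5 and 17.7 CPM in controls. In both genes every HI library was above every control, and the controls spanned a narrow range. Psme1 rose 2.1-fold (log2 fold change 1.07 ± 0.19 SE, edgeR adjusted p = 0.0270) and Psme2 2.02-fold (1.02 ± 0.20 SE, edgeR adjusted p = 0.0312).

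All 5 immunoproteasome genes were highest in HI 3 and lowest, among the HI libraries, in HI 1. That arrangement was seen in 30.8% of all genes tested and in 69% of the genes called higher in HI. The calls depended on single libraries. Without control 1, control 2 or HI 2 edgeR called 0 of the 5 genes, and 0, 1 and 0 genes in the whole table. It called 3 of the 5 without control 3, 5 without HI 1 and 3 without HI 3. The shares of all genes higher in those fits were 3.96%, 13.7% and 1.62%. All log2 fold changes stayed above 0 in every fit without a library, from 2.88 to 3.8 for Psmb8 and from 2.11 to 2.95 for Psmb9. With HI 1 set against controls 1 and 3 only, the HI and control libraries lowest in choroid plexus markers (184 CPM in HI 1, against 16.7 and 7.70 CPM in these controls, so not matched), the log2 fold changes were 2.47 for Psmb8, 1.51 for Psmb9, 0.42 for Psmb10, 0.59 for Psme1 and 0.69 for Psme2, with edgeR adjusted p from 0.393 to 0.666 and HI represented by a lone library. In that fit edgeR called 0 of 15245 genes, with 5.14% higher and 5.04% lower at an unadjusted p below 0.05.

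**Figure D2:**
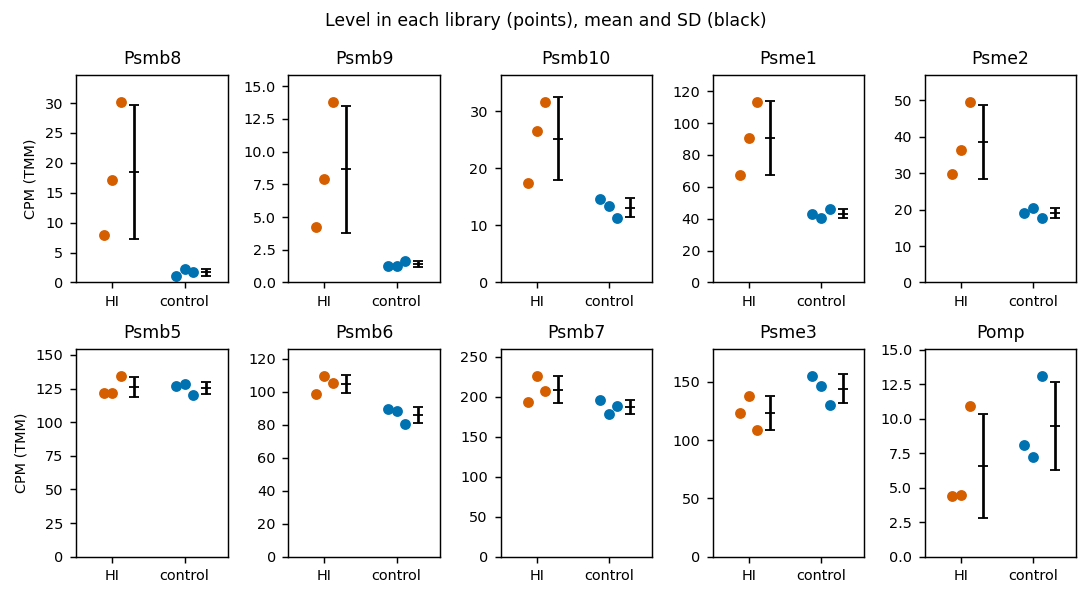
CPM (y axis, from 0) of the 5 immunoproteasome genes (upper row) and of Psmb5, Psmb6, Psmb7, Psme3 and Pomp (lower row) in each library, HI left and control right; black marks are the mean and SD (n = 3 per group). The groups are apart in all 5 upper panels and, in the lower row, only in Psmb6.

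Promoter sequences are shown for the immunoproteasome genes that carry the interferon-stimulated response element (ISRE), the site bound by interferon regulatory factors, for Tap1, which lies head to head with Psmb9, and for Psmb5 as a constitutive contrast. Sequences are from RefSeq on GRCr8, a later build than the one the counts were made on. Each is written 5′ to 3′ on the strand of the gene and ends at the base before the annotated start, except that of Psmb8, which runs 20 bases past it. Capitals mark the ISRE letters (GAAA, any 2 bases, GAAA) on either strand, and in Psmb5 the antioxidant response element (ARE) letters TGACNNNGC, a motif of the factors Nfe2l1 and Nfe2l2.
Psmb8, chr20:4657012-4657201, minus strand: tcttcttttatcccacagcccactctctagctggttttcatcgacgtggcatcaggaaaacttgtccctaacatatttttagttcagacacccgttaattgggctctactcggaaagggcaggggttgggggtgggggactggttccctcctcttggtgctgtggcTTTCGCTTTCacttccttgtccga
Psmb10, chr19:50743293-50743462, minus strand: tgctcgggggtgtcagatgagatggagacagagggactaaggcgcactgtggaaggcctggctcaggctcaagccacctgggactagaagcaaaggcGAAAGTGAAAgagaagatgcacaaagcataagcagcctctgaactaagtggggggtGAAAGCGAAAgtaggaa
Psme2, chr15:33052752-33052921, minus strand: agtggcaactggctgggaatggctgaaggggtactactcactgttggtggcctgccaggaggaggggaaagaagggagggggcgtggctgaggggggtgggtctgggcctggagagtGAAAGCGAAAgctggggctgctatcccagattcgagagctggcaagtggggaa
Tap1, chr20:4668544-4668713, minus strand: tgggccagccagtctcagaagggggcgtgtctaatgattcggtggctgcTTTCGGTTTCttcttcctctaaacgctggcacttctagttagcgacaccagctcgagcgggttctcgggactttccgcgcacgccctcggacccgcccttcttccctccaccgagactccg
Psmb5, chr15:32047380-32047549, minus strand: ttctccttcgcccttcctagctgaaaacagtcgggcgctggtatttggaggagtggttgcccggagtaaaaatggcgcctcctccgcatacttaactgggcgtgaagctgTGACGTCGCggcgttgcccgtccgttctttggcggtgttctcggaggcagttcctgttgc

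Windows of 300 bases (250 before the start and 50 after) were at hand for 45 of the 50 members. The ISRE letters occurred in 3 of 5 immunoproteasome windows, 3 of 27 constitutive ones (Psma4, Psmb3 and Psmd7) and 1 of 13 others (Psmg4), against 3.92% of 33469 windows of all genes. Psmb8, Psmb10 and Psme2 hold the same letters, GAAAGCGAAA, and Psmb10 also GAAAGTGAAA. The windows of Psmb9 and Psme1 hold no such letters. The starts of Tap1 and Psmb9, on opposite strands, are separated by 456 bases, and the match in the Tap1 window, GAAACCGAAA, ends 336 bases before the start of Psmb9. The interferon-gamma activated site TTCNNNGAA was found in 1 of 5 immunoproteasome windows (Psmb8), 3 of 27 constitutive ones and 0 of 13 others, against 8.87% of all windows. The ARE letters were found in 0 of 5 immunoproteasome, 6 of 27 constitutive (among them Psmb5 and Psmb6) and 2 of 13 other windows, against 12.1%. The ISRE and ARE were searched on both strands, and TTCNNNGAA reads the same on both. A match of letters is a description of these windows.

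The comparison of each catalytic immunoproteasome gene with the subunit whose place it takes was made within each library. It is the log2 ratio of reads, which needs no scaling between libraries. The absolute ratio depends on transcript length, and only its difference between groups is read. For Psmb8 over Psmb5 it was -3.93, -2.83 and -2.15 in HI 1, 2 and 3, against -6.76, -5.84 and -6.09 in controls 1, 2 and 3. The ratio was 9.56 times as high in HI as in controls. For Psmb9 over Psmb6 it was -4.54, -3.79 and -2.93 in HI and -6.08, -6.10 and -5.58 in controls, a ratio 4.48 times as high.

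For Psmb10 over Psmb7 the log2 ratio was -3.47, -3.08 and -2.71 in HI and -3.74, -3.72 and -4.05 in controls, 1.68 times as high. PA28 was set against Psme3, which forms the nuclear PA28 gamma ring and is not among the constitutive subunits. Psme1 over Psme3 stood at -0.88, -0.60 and 0.06 in HI and -1.85, -1.86 and -1.50 in controls, 2.40 times as high. Psme2 over Psme3 stood at -2.05, -1.92 and -1.13 in HI and -3.02, -2.84 and -2.87 in controls, 2.31 times as high. All HI libraries were above all controls in all 5 ratios. The exact two-sided permutation test gave p = 0.1 for each ratio, also adjusted over the 5, which is the smallest p that 3 against 3 libraries allow.

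**Figure D3:**
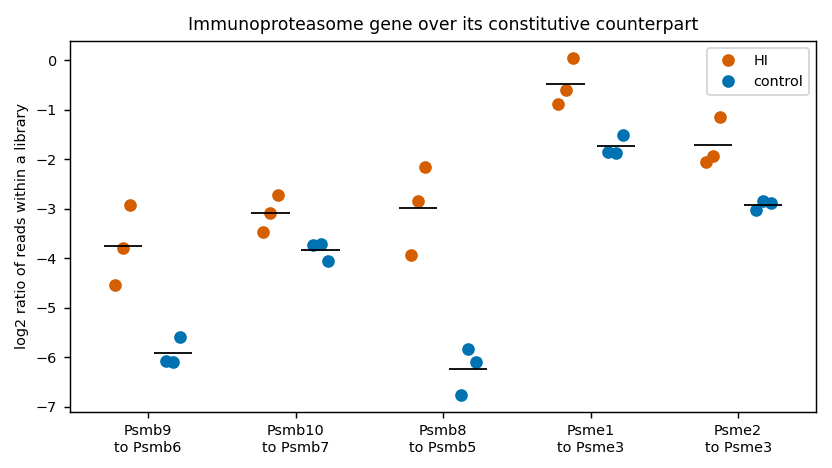
Log2 ratio of reads within a library (y axis) for each catalytic immunoproteasome gene over its constitutive counterpart, and for Psme1 and Psme2 over Psme3 (x axis). HI is left and control right in each pair, and lines are group means (n = 3 each). The difference of the means runs from 0.75 for Psmb10 over Psmb7 to 3.26 for Psmb8 over Psmb5.

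Among the constitutive catalytic subunits, Psmb5 had 122, 122 and 134 CPM in HI and 127, 129 and 120.2 CPM in controls. The groups overlapped, and the log2 fold change was 0.01 ± 0.09 (SE; edgeR adjusted p = 0.943), a value whose sign turned with DESeq2-type factors (-0.01). Psmb6 had 98.8, 109.7 and 105 CPM in HI and 89.4, 88.4 and 80.5 CPM in controls, without overlap and its log2 fold change, 0.28 ± 0.09 (SE), missed the threshold (edgeR adjusted p = 0.0812). Psmb7 had 193, 226 and 207 CPM in HI and 195, 178 and 188 CPM in controls, with overlap and a log2 fold change of 0.16 ± 0.10 (edgeR adjusted p = 0.305). Psmb6 was among 4 members with fractional entries, taken as reads shared among similar genes, and its values are uncertain.

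For the 31 constitutive subunits the log2 fold changes ran from -0.05 (Psmc3) to 0.37 (Psmd11 and Psma6), with a median of 0.18, against 0.04 for all genes tested. Of the 31 values 30 were above 0, against 53.3% of all genes tested. By edgeR 0 of 31 passed, with 9 at an unadjusted p below 0.05, all higher in HI, against 19.1% of all genes higher at that p. DESeq2 called 4 of 31 higher (against 13.9% of all genes tested) and limma-voom 0. The quartiles of the constitutive subunits were 0.13 and 0.25, and those of all genes tested -0.29 and 0.44.

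How many constitutive subunits were called depended on the scaling. With upper-quartile factors edgeR called 5 of 31 higher, against 9.67% of all genes tested (5.37% were lower), and with total counts 15 of 31, against 14.4% (4.88% were lower). These scalings moved the median of all genes to 0.14 and 0.23, and that of the constitutive subunits to 0.27 and 0.37, and all 31 values were above 0 with either. Without HI 1, edgeR with TMM scaling called 4 of 31, against 13.7% of all genes tested in that fit, a share near that of the 31. Other settings left fewer values above 0: 29 of 31 with DESeq2-type factors, 28 with no filter, 26 without control 3 (median 0.12) and 23 with HI 1 and controls 1 and 3 only (median 0.10).

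**Figure D4:**
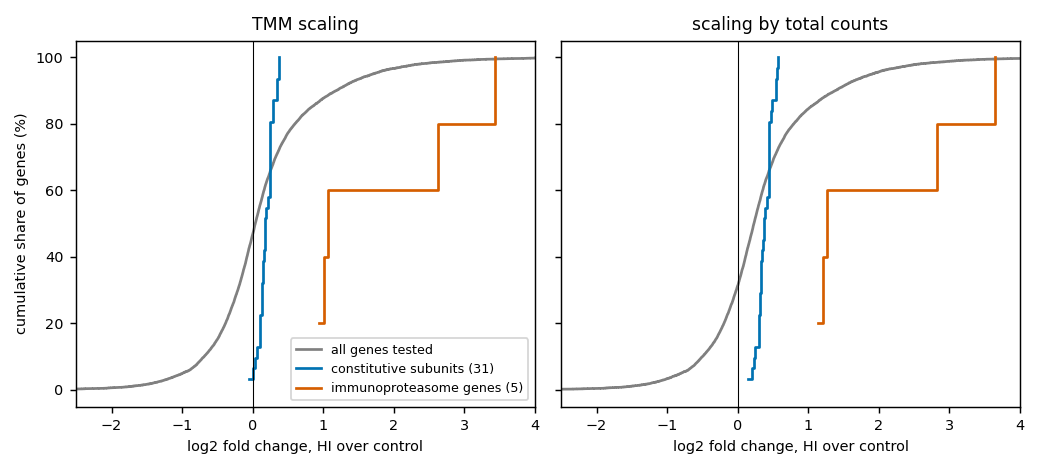
Cumulative share of genes (y axis, %) by log2 fold change of HI over control (x axis), with TMM scaling (left) and scaling by total counts (right), for the 5 immunoproteasome genes, the 31 constitutive subunits and all genes tested. With total counts all 3 curves lie further right, and the constitutive subunits stay within a narrow span, with medians of 0.18 (left) and 0.37 (right).

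Of the 19S lid, Psmd11, a scaffold subunit, had 131, 155 and 138 CPM in HI and 111, 111 and 107 CPM in controls. The groups did not overlap, and its log2 fold change of 0.37 ± 0.10 (SE) had the smallest edgeR adjusted p of the constitutive subunits, 0.0527, with a DESeq2 adjusted p of 0.0111. Psmd6, another lid subunit, had 103, 122.6 and 116 CPM in HI and 99.3, 97.1 and 92.2 CPM in controls (edgeR adjusted p = 0.129). In the ATPase ring Psmc2 had 108, 130.4 and 131 CPM in HI and 95.6, 97.1 and 98.3 CPM in controls (edgeR adjusted p = 0.0687, DESeq2 adjusted p = 0.0275). Psmc1, of the same ring, had 165, 187 and 186 CPM in HI and 160.0, 150.1 and 141 CPM in controls (edgeR adjusted p = 0.127). In all 4 genes the groups were apart by small margins.

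In the alpha ring Psma6 had 87.4, 102 and 107 CPM in HI and 83.3, 73.0 and 73.0 CPM in controls (edgeR adjusted p = 0.0723, DESeq2 adjusted p = 0.0365). Psma2 had 86.4, 78.0 and 88.8 CPM in HI and 73.9, 68.0 and 71.5 CPM in controls (edgeR adjusted p = 0.114). HI exceeded control in every library for both. Of the beta subunits without an active site, Psmb3 had 91.5, 102 and 113 CPM in HI and 82.5, 80.8 and 78.5 CPM in controls (edgeR adjusted p = 0.0694, DESeq2 adjusted p = 0.0322), and Psmb2 had 47.5, 54.7 and 59.6 CPM in HI and 46.6, 45.1 and 44.5 CPM in controls (edgeR adjusted p = 0.170). These groups did not overlap either. Psmc3, an ATPase, was the constitutive subunit with a value below 0, at 149, 187 and 189 CPM in HI and 194, 191 and 159.9 CPM in controls, with overlap and a log2 fold change of -0.05 ± 0.14 (edgeR adjusted p = 0.802), which was 0.14 with total counts.

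By role, the median log2 fold change was 0.25 in the alpha ring (7 genes), 0.23 in the beta subunits without an active site (4), 0.16 in the catalytic ones (3), 0.11 in the ATPase ring (6) and 0.18 in the other 19S subunits (11). The libraries of a group also lay close together for these genes. The median coefficient of variation over the 31 subunits was 8.74% in HI and 5.5% in controls, against 16.6% and 12.7% over all genes tested and 28.7% and 12.8% over the 5 immunoproteasome genes.

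Outside the core and cap, Psmf1, a proteasome inhibitor named PI31 that blocks the 20S core in vitro, had 42.4, 50.4 and 63.9 CPM in HI and 29.5, 27.7 and 31.3 CPM in controls. Every HI library was above every control. Psmf1 rose 1.77-fold (log2 fold change 0.82 ± 0.17 SE, edgeR adjusted p = 0.0320, DESeq2 adjusted p = 4.4e-04). Its call was lost without any library but HI 1, with log2 fold changes of 0.65 to 0.95 when a library was left out. The other activators did not pass. Psme3 had 124, 138 and 109 CPM in HI and 155, 147 and 130.3 CPM in controls, with overlap and a log2 fold change of -0.22 ± 0.12 (edgeR adjusted p = 0.239). Psme4, the PA200 activator of the nucleus, had a log2 fold change of -0.11 ± 0.11 (edgeR adjusted p = 0.472), a sign that turned with total counts (0.08).

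Of 8 assembly chaperones 1 rose by edgeR, against 6.83% of all genes tested, a count that does not set the chaperones apart. Psmd5, which helps to build the base of the 19S cap, had 48.9, 55.5 and 60.2 CPM in HI and 34.5, 37.2 and 36.8 CPM in controls. The groups were clearly apart, with a 1.52-fold rise (log2 fold change 0.60 ± 0.12 SE, edgeR adjusted p = 0.0284, DESeq2 adjusted p = 2.3e-04). Its call was lost without control 1, control 2, HI 2 or HI 3, with log2 fold changes of 0.53 to 0.67 when a library was left out. Psmg3, of a pair of chaperones for the alpha ring, had 23.1, 22.8 and 18.1 CPM in HI and 17.4, 13.5 and 14.7 CPM in controls, without overlap and without passing (edgeR adjusted p = 0.0910). Psmd9 and Psmd10, chaperones of the base, had log2 fold changes of 0.33 and 0.08, and Psmg1, Psmg2 and Psmg4, which act on the core, -0.02, -0.03 and -0.03, which were 0.17, 0.16 and 0.16 with total counts. Neither group stood wholly above the other in these 5.

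Pomp, the maturation factor of the core that is known to speed immunoproteasome assembly, had 4.38, 4.45 and 10.9 CPM in HI and 8.06, 7.26 and 13.1 CPM in controls. The groups overlapped, with a log2 fold change of -0.53 ± 0.44 (SE; edgeR adjusted p = 0.420). Pomp, like Psmb6, Psmd9 and Psmd12, had fractional entries, and its level is uncertain.

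The tissue-restricted variants were at the edge of detection. Psma8, the alpha subunit of germ cells, had at most 1 read in a library and was not tested. Psmb11, the thymus subunit, had 7, 7 and 16 reads in HI and 8, 16 and 13 reads in controls, which overlap (edgeR adjusted p = 0.457). Psmc3ip, which is no subunit, had 4.35, 4.88 and 8.85 CPM in HI and 4.09, 3.24 and 5.47 CPM in controls (edgeR adjusted p = 0.354).

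Other genes of the pathway were taken as lists, set with earlier results of these data known, so their counts are descriptions. Of 10 genes of MHC class I loading 7 rose and 0 fell by edgeR, against 6.83% and 7.04% of all genes tested. Their median log2 fold change was 1.61. Tap1, a chain of the peptide transporter, had 7.82, 18.4 and 27.9 CPM in HI and 3.41, 3.24 and 4.04 CPM in controls, a 5.06-fold rise (edgeR adjusted p = 0.0303), and its partner Tap2, with fractional entries, rose 3.50-fold (edgeR adjusted p = 0.0274). B2m, the light chain of MHC class I, rose 2.2-fold and Nlrc5, the transactivator of MHC class I genes, 4.09-fold (edgeR adjusted p = 0.0287 and 0.0282). Canx, Calr and Pdia3, general chaperones of the endoplasmic reticulum on the same list, did not pass. limma-voom called 2 of the 10 higher, against 3.69% of all genes tested.

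Of 15 regulators of proteasome genes 5 rose and 0 fell by edgeR, against 6.83% and 7.04% of all genes tested. Their median was 0.65, and Nlrc5 is on both lists. Irf8, an interferon regulatory factor of myeloid cells, had 21.7, 32.3 and 41.3 CPM in HI and 5.98, 6.99 and 10.03 CPM in controls, a 4.14-fold rise (edgeR adjusted p = 0.0219). Irf1, an activator of immunoproteasome genes named here after its values were seen, had 5.02, 10.9 and 29.6 CPM in HI and 2.2, 3.53 and 4.57 CPM in controls and did not pass (log2 fold change 2.14 ± 0.67 SE, edgeR adjusted p = 0.0722). Nfe2l2, a regulator of antioxidant genes, rose 3.19-fold (edgeR adjusted p = 0.0270). Nfe2l1, which induces constitutive subunits when proteasomes are inhibited, also named after its values were seen, had 265, 266 and 230.3 CPM in HI and 195, 182 and 237 CPM in controls, with overlap and a log2 fold change of 0.31 ± 0.13 (edgeR adjusted p = 0.144).

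Of 8 proteasome-associated genes outside the symbol rule 1 rose and 0 fell by edgeR, with a median of -0.03. Among all genes tested 6.83% rose and 7.04% fell, so these counts do not set the list apart. The gene that rose was Zfand2a, an arsenite-inducible zinc finger protein that binds proteasomes (1.38-fold, edgeR adjusted p = 0.0467). On this list limma-voom called 0 and DESeq2 1 higher and 1 lower. DESeq2 called 13.9% of all genes tested higher and 14.2% lower. Of 15 genes for ubiquitin and substrate delivery 0 passed by edgeR, with 2 higher and 2 lower at an unadjusted p below 0.05 (19.1% and 17.4% of all genes tested), and DESeq2 called 2 higher and 1 lower and limma-voom 0. The median of the 15 was 0.01. The main E1 enzyme Uba1 had a log2 fold change of -0.49 ± 0.14 (SE; edgeR adjusted p = 0.0599).

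Markers of several cell types also differed between HI and control, some higher and some lower. By edgeR 6.83% of all genes tested were higher and 7.04% lower. Of 15 microglia markers 12 rose and 0 fell, their levels summing to 415 to 699 CPM in HI and 166 to 251 CPM in controls, with no marker at 0. Among them C1qc, a complement chain, rose 7.44-fold and Ptprc, the leukocyte protein CD45, 5.20-fold. The markers that did not pass were P2ry12 and P2ry13, purine receptors, and Tmem119, with log2 fold changes of -0.13, -0.02 and 0.47 (edgeR adjusted p = 0.714, 0.961 and 0.260). Neuron markers summed to 2889 to 5285 CPM in HI and 7305 to 9240 CPM in controls, with 4 of 10 lower by test. Endothelial markers summed to 178 to 388 CPM in HI and 161 to 213 CPM in controls, with 1 of 8 called, Cdh5. Markers of neutrophils and monocytes summed to 9.56 to 15.5 CPM in HI and 2.62 to 3.79 CPM in controls, and 2 of 7 could be tested. Csf3r, which made up most of the sum, rose 3.03-fold (edgeR adjusted p = 0.0286). The untested markers of this list, S100a8, S100a9, Mpo, Cxcr2 and Ly6c, had at most 12 reads in a library (S100a8 in HI 3). Plac8 had 36, 48 and 51 reads in HI and 8, 5.64 and 1 reads in controls. It passed the filter on low counts only through HI, so its call is not read as a result. Of T and NK cell markers 8 of 9 were too low to test, and Cd3e, Cd3d and Cd3g were at or below 1 read in every library. The part of any of these cell types in the immunoproteasome values was not tested.

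Relative to the control mean, the median log2 level of the immunoproteasome genes was 0.63, 1.06 and 1.38 in HI 1, 2 and 3 and from 0.00 to 0.04 in the controls. The median of the constitutive subunits was 0.09, 0.24 and 0.27 in HI 1, 2 and 3 and 0.05, 0.02 and -0.07 in controls 1, 2 and 3. In HI 1 the constitutive median was close to that of control 1, while the immunoproteasome median was above all controls. MHC class I loading genes stood at 0.78, 1.43 and 1.99 in HI 1, 2 and 3 and microglia markers at 0.84, 1.26 and 1.66, with controls between -0.06 and 0.09 and between -0.23 and 0.33.

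**Figure D5:**
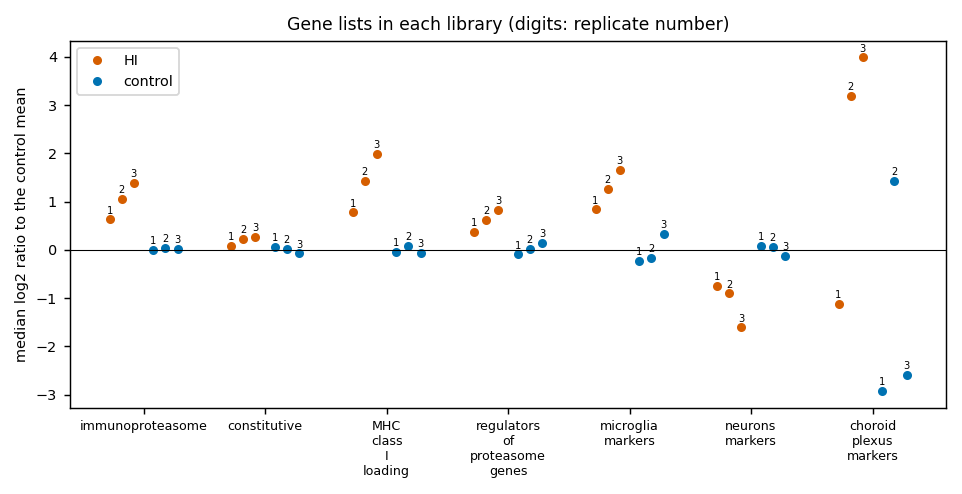
Median log2 ratio to the control mean (y axis; 0.5 CPM added) of 7 gene lists (x axis) in each library, HI left and control right, with digits giving the replicate number. The immunoproteasome median is 0.63 to 1.38 in HI, the constitutive median 0.09 to 0.27, and the choroid plexus median sets HI 2, HI 3 and control 2 apart from the other libraries.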

How the data were processed

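The authors deposited estimated counts per gene, not scaled, which per the file headers are read counts. Tools named in the submitters' processing notes are StringTie 2.2.1, HISAT2 2.1.0 and SAMtools 1.10, with the build Rnor 6.0. The sources used here give neither the counting step nor the strand setting. Entries not whole to within 1e-09 (8.87%, in 2410 genes) were taken as reads shared among similar genes. Estimated counts were rounded, filtered with filterByExpr (minimum count 10), scaled by TMM and tested in R 4.3.3 with edgeR 4.0.16 (quasi-likelihood F test), all 6 libraries in a model with group alone. P-values were adjusted over 14959 genes. The SE was derived from the F statistic. Ratios of reads had 0.5 read added. The fits were tested on simulated data. Alternatives were DESeq2 1.42.0, limma-voom 3.58.1, other scalings and filters, the replicate block, leaving out each library and, chosen after seeing the data, HI 1 with controls 1 and 3. The symbol rule and the lists were set with earlier results of these data known. Described per library were the immunoproteasome genes, their counterparts, Pomp, called members and the 2 smallest p of each role; of the lists, at most 4 called genes, of which some are not reported here. Floors cover counting error only, and reads without molecular identifiers are not independent molecules.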

Additional observations from a re-analysis of the deposited data

How the results depend on the processing

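The count of members higher in HI, 6 with edgeR and TMM, was 12 with upper-quartile factors, 23 with total counts, 11 with DESeq2 and 0 to 11 when a library was left out. The shares of all genes higher were 6.83% with TMM, 9.67% with upper-quartile factors, 14.4% with total counts and 13.9% with DESeq2. These shares were 3.69% with limma-voom and 0% to 13.7% without a library. Of the immunoproteasome genes, 4 with edgeR, limma-voom called 2 (Psme1 and Psme2) and fits without a library 0 to 5. Of the 31 constitutive subunits, 0 with edgeR, 5, 15 and 4 were higher with upper-quartile factors, total counts and DESeq2, and 0 to 4 without a library. The 4 by DESeq2 and the 4 without HI 1 are near the shares of all genes, 13.9% and 13.7%. With HI 1 and controls 1 and 3 only, edgeR called 0 members and 0 immunoproteasome genes, and 0 of 15245 genes in all. The labels do not say whether equal replicate numbers mark paired samples. Deviations of same-numbered libraries correlated at 0.25, 0.06 and -0.13 across genes, and those of differently numbered ones at -0.31 to 0.30. Deviations within a group sum to 0 and carry differences in tissue content, so these values cannot decide on pairing. The replicate block called 5 members higher (Psme2 was lost), against 5.15% of all genes tested. Under this block the 5 ratios kept their differences with an exact permutation p of 0.25, the smallest it allows. Without a library the differences of log2 ratios ran from 2.85 to 3.74 (Psmb8), 1.75 to 2.56 (Psmb9), 0.56 to 0.94 (Psmb10), 1.0 to 1.46 (Psme1) and 0.92 to 1.38 (Psme2). Psmb5 changed sign, with log2 fold changes of -0.013 with DESeq2-type factors and -0.013 with DESeq2, -0.035 with no filter, -0.020 with HI 1 and controls 1 and 3, and -0.053 to 0.033 without a library. Psmc3ip turned to -0.14 with HI 1 and controls 1 and 3. Of 344 values of 23 members under other settings 276 kept their side of the threshold and direction, 32 lost a call, 27 gained one and 9 changed sign; the causes were not tested. Depth limits the values of Psmb8 and Psmb9, with 15 to 30 and 17 to 22 reads in the controls.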
